A study of Mus musculus with 21 samples.

Results

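The genes of ceramide metabolism and of the skin barrier lipids were followed as a fixed set of 37 genes in keratinocytes with and without a p16 transgene. They were taken by symbol from the expression table of 22050 entries, and all 37 symbols were found. Each gene was placed in 1 of 6 roles: de novo ceramide synthesis (11 genes), conversion to and from glucosylceramide and sphingomyelin (6), ceramidases and sphingosine metabolism (8), acylceramide synthesis and lamellar body transport (5), the epidermal lipoxygenase pathway (4) and epidermal lipases (3).

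Both groups of mice carried K5-rtTA, a doxycycline-responsive activator driven by the keratin 5 promoter of basal keratinocytes, together with tet-GFP, and the p16 group carried in addition tet-p16, which encodes the human cell cycle inhibitor p16. All animals were of a mixed FVB, C57Bl and 129sv background and received doxycycline from 3 weeks of age for 6 months. GFP+ keratinocytes were sorted from dorsal skin after cells positive for CD140a, CD45 or CD31 had been gated out, and about 80000 cells from 3 mice were pooled per sample, giving 4 control and 4 p16 samples. GFP and p16 were separate transgenes, so a GFP+ cell marked induction but was not itself scored for p16, and the labels of replicate 3 in both groups worded the library protocol differently from those of the other samples.

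Ceramides are built from serine and a fatty acyl chain, first as dihydroceramide and then as ceramide, and are converted onward to glucosylceramide or sphingomyelin, or broken down to sphingosine. In the outer epidermis, ceramides with very long acyl chains carry a linoleate ester, which lipoxygenases oxidise before the lipid is attached to the cornified envelope. Lamellar bodies secrete these lipids into the space between corneocytes, where they form the water barrier. Many of these enzymes act late in keratinocyte differentiation.

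Reads on genes numbered 1760953 to 3414362 in control samples and 2884544 to 3202975 in p16 samples, and values below are reads divided by the size factor of each sample, called normalized values. The human p16 transgene was listed at 0.7, 1.3, 2.5 and 1.5 in the controls and at 1.6, 10.1, 16 and 7.4 in the p16 samples. With 2 reads, the library labelled p16 replicate 1 lay within the controls for its own transgene, so results are also given without it. The GFP transgene, on which cells were sorted, was at 4152.0 to 5912.6 in controls and 3161.8 to 3978.8 in p16 samples. In the test described below GFP was lower in p16 samples (log2 fold change -0.58, limma adjusted p = 0.0167). The human p16 transgene did not pass it (log2 fold change 1.73, limma adjusted p = 0.0952). Keratin genes of the basal layer summed with other basal markers to 32890 to 53700 in controls and 33270 to 37800 in p16 samples. Krt5 and Krt14, which make up much of this sum, had 11761 to 12279 and 10186 to 12146 reads. These reads varied little although the total reads of the libraries did. The spread of the sum between samples is therefore not read as expression, and the cause was not tested. Of 6 endothelial markers, 4 were at 0 reads in every sample.

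Of the 37 genes, 34 could be tested, and 1 passed the adjusted test between the groups. It was the ceramide synthase gene Cers4, which was lower in p16 cells. The other genes tested, including those for acylceramide synthesis, the lipoxygenases and the ceramidases, did not pass the adjusted test in either direction. With limma on log2(normalized value + 1) and Benjamini-Hochberg adjustment over 12782 genes, 0 of the 34 members that could be tested were higher and 1 was lower, beside 1.24% of all genes called higher and 2.61% called lower. The share called was thus 2.94% of tested members against 3.86% of all genes. At an unadjusted limma p under 0.05, 1 member was higher (Alox12b) and 3 were lower (Cers4, Sgms2 and Sphk1), beside 7.02% of all genes higher and 8.93% lower. Either way these were 11.8% of members and 15.9% of all genes. On the recovered reads, edgeR and DESeq2 also called Cers4 and no other member, with 4.29% and 4.27% of all genes called.

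The members' log2 fold changes were spread evenly about 0, with 17 above it and 17 below, a median of -0.04 and a median size of 0.14, beside -0.00 and 0.18 over all genes. For 20 of 34 members (58.8%) the 95% interval lay within a 1.5-fold change either way, beside 50.3% of all genes. It lay within a 2-fold change for 27 members (79.4%), beside 74.7% of all genes. The intervals of Cers4, Degs2, Sgms2, Asah2, Alox12b, Sdr9c7 and Lipk reached past 2-fold, so for the 6 of these that were not called a change of that size is not excluded.

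**Figure D1:**
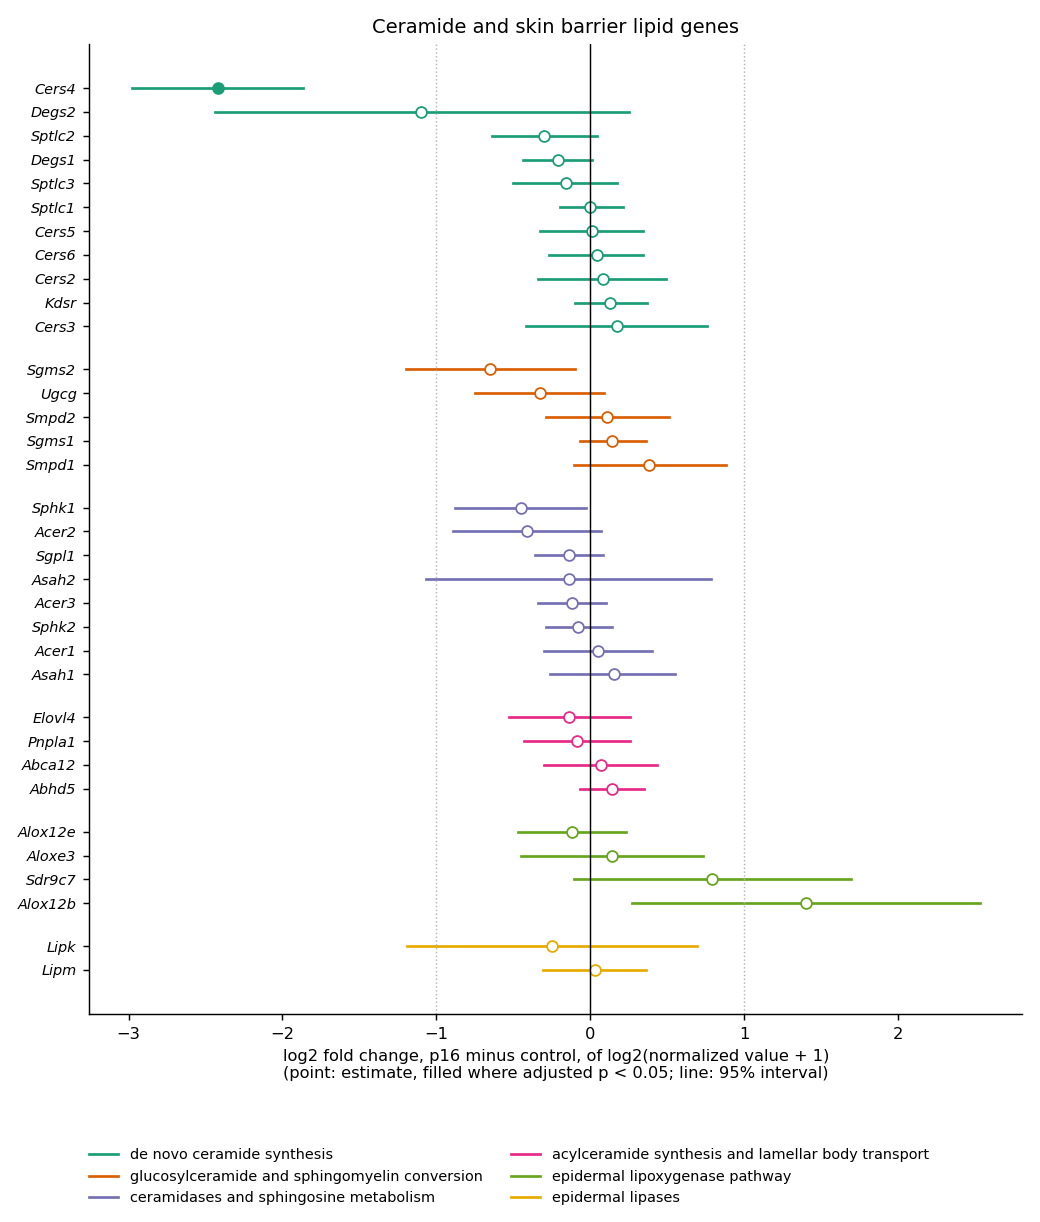
Log2 fold change (p16 minus control) of the 34 tested members, by role, on the log2(normalized value + 1) scale, with the limma estimate as a point and its 95% interval as a line, over 4 samples per group. Cers4, at -2.42, is the filled point that passed adjustment, and most other intervals lie between the dotted lines that mark a 2-fold change.

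Cers4 (ENSMUSG00000008206, + strand of chromosome 8, 4493026 to 4531680 in GRCm38) encodes an endoplasmic reticulum enzyme that joins long acyl chains to the sphingoid base. In mouse skin it is known for its part in the hair follicle and the sebaceous gland, and mice without it lose hair and make altered sebum. Normalized values were 409.5, 314.4, 329.9 and 241.4 in control samples 1 to 4 and 42.4, 111.6, 61.2 and 40.3 in p16 samples 1 to 4. These stood for 158 to 552 reads in a control library and 49 to 143 reads in a p16 library. The lowest control lay above the highest p16 sample, p16 replicate 2, which was itself above the other p16 samples.

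The group means of Cers4 were 324 ± 68.9 (SD, n = 4) and 63.9 ± 33.2 (SD, n = 4), a 5.07-fold lower value in p16 cells. The log2 fold change was -2.42 with a standard error of 0.26 and a 95% interval of -2.98 to -1.87 (limma, Benjamini-Hochberg adjusted p = 0.000111). The exact two-sided permutation p was 0.0286, the smallest that 4 samples against 4 allow. By the size of the fall in log2 value, Cers4 was in place 47 among all genes tested. Without the library labelled p16 replicate 1 the log2 fold change was -2.27 (limma adjusted p = 0.000553), and without replicate 3 of both groups it was -2.43 (limma adjusted p = 0.00336).

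The promoter of Cers4 is shown because this was the member that passed the adjusted test. It covers chr8:4493155-4493454 on the + strand (RefSeq, GRCm38.p6), from 250 bases before the start site to 50 bases after it, with a GC box in capitals:
Cers4 promoter: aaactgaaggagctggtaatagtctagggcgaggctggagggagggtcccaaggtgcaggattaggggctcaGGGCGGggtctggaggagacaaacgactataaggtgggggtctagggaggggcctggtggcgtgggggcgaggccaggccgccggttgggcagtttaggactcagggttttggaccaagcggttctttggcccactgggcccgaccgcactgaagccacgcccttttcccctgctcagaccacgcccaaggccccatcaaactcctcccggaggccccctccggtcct
Its GC content was 64.3%, beside a median of 52.7% over 32851 promoters of the same length. The letters GGGCGG, a GC box, were matched 1 time, at position -178 from the start site, and 35.7% of all promoters hold them on either strand. Searched on both strands, the window held no match to CTTTGA (a TCF/LEF core, in 16% of all promoters), ACAANG (a SOX core, 41.2%), AGGTCA (a nuclear receptor site, 16.3%), TAATTA (a LIM homeobox core, 5.29%), TGANTCA (AP-1, 7.81%), CACGTG (an E-box, 7.15%) or CCAAT (37.4%). A match is a description of the letters and not of a binding site. The RefSeq start site used here lies downstream of the GENCODE gene start (4493026), so the whole window lies within the gene as placed above. Bases before that GENCODE start were not searched. Promoters were listed for 33 of the 37 members.

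The other ceramide synthases differ in the acyl chains they add: Cers2 makes very long chain ceramides, Cers3 the ultra long chains of the epidermal barrier, and Cers5 and Cers6 those with shorter chains. Their log2 fold changes were 0.08 (95% interval -0.34 to 0.49) for Cers2, 0.17 (-0.42 to 0.76) for Cers3, 0.01 (-0.33 to 0.34) for Cers5 and 0.04 (-0.27 to 0.34) for Cers6. Cers2 overlaps Setdb1 on the opposite strand, and whether counting used the strand is not stated, so its value is uncertain. Summed, these 4 genes gave 225.3 ± 10.2 (SD, n = 4) in controls and 234.4 ± 20.7 in p16 samples. With Cers4 included, the sum of Cers2 to Cers6 was 549.1 ± 73.5 in controls and 298.2 ± 22.7 in p16 samples, and the whole of that difference lay in Cers4.

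**Figure D2:**
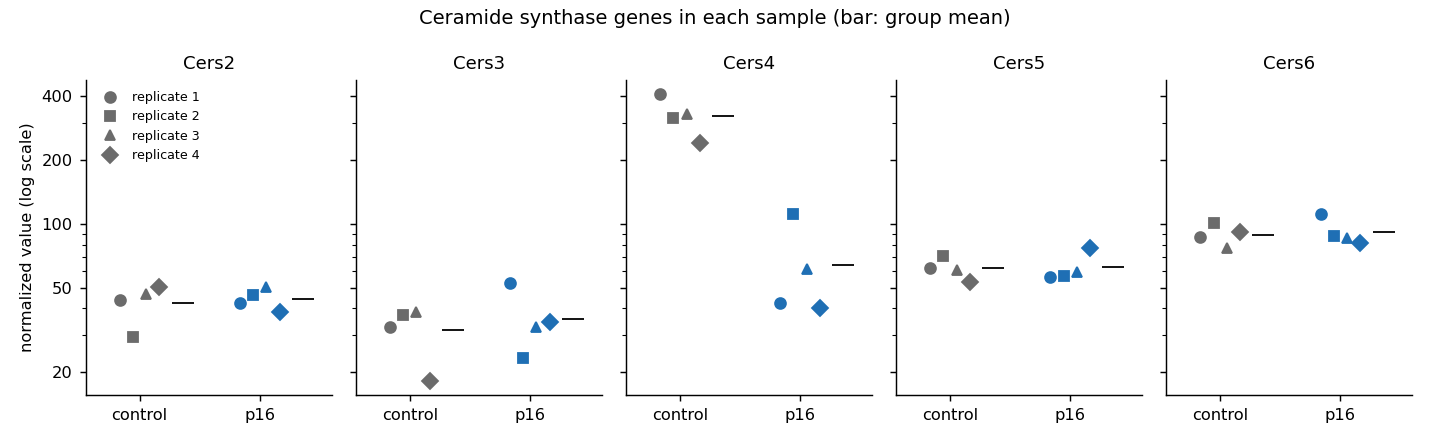
Normalized values of Cers2 to Cers6 in each sample (log axis), with replicates told apart by symbol and group means as bars. For Cers4 the control samples, from 241.4 to 409.5, lie above the p16 samples, from 40.3 to 111.6, and the groups overlap for Cers2, Cers3, Cers5 and Cers6.

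The steps before and after the synthases did not pass the test. Sptlc1, Sptlc2 and Sptlc3 encode subunits of serine palmitoyltransferase, the entry step of the pathway, and their summed value was 367.4 ± 36.7 in controls and 343.4 ± 12.6 in p16 samples. Sptlc2 had the lowest adjusted p of the 3 (log2 fold change -0.30, 95% interval -0.64 to 0.04, limma adjusted p = 0.38). Kdsr, the reductase of the next step, had a log2 fold change of 0.13 (-0.10 to 0.37). Degs1, which desaturates dihydroceramide to ceramide, had values of 338.3, 378.6, 380.0 and 342.2 in controls and 265.5, 326.4, 305.0 and 347.8 in p16 samples, a log2 fold change of -0.21 (-0.44 to 0.01, limma adjusted p = 0.338). Degs2, which adds the hydroxyl group of phytoceramides, was listed at 5.9, 1.3, 20.9 and 3.1 in controls and 0.8, 4.7, 2.7 and 0.8 in p16 samples, and its interval of -2.44 to 0.25 leaves its direction undetermined. Evl lies on the other strand over Degs2, with the same uncertainty.

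Sgms2 encodes the sphingomyelin synthase of the plasma membrane. It was at 52.7, 57.8, 49.3 and 50.4 in controls and at 44.0, 41.4, 16.8 and 38.6 in p16 samples, so the groups did not overlap. Its means were 52.6 ± 3.78 and 35.2 ± 12.5 (SD, n = 4), a log2 fold change of -0.65 with a standard error of 0.26, which did not pass adjustment (limma unadjusted p = 0.0238, adjusted p = 0.217). Without p16 replicate 3, the lowest sample, the log2 fold change was -0.34 (limma unadjusted p = 0.07, adjusted p = 0.404), and the unadjusted p was 0.0569 without control replicate 2. The exact two-sided permutation p over the 8 samples was 0.0286. Sgms2 and Cers4 were the 2 members whose groups did not overlap, both lower in p16 cells, and made up 5.88% of those tested. Of all genes, 4.19% were higher without overlap and 5.63% lower, or 9.83% in all.

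Among the other conversion enzymes, Sgms1, the Golgi sphingomyelin synthase, had a log2 fold change of 0.14 (-0.07 to 0.36). Ugcg, which makes glucosylceramide, had one of -0.33 (-0.75 to 0.09). The acid sphingomyelinase gene Smpd1 had one of 0.38 (-0.11 to 0.88), and Smpd2, a neutral sphingomyelinase that shares its locus with Mical1 on the opposite strand, one of 0.11 (-0.29 to 0.51). The limma adjusted p of these 4 genes ranged from 0.459 to 0.846. Smpd3, another neutral sphingomyelinase, was not tested because its mean value over the 8 samples was under 1. Its values above 0 were 0.8 in control replicate 3 and 2.3 in p16 replicate 2, and Prmt7 overlaps it on the opposite strand.

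Sphk1 encodes a kinase that turns sphingosine into sphingosine-1-phosphate. It was at 92.7, 97.5, 166.2 and 77.9 in controls and at 64.8, 85.1, 77.1 and 77.3 in p16 samples, and the groups overlapped through control replicate 4. Its log2 fold change was -0.45 with a standard error of 0.20 (limma unadjusted p = 0.0376, adjusted p = 0.272, exact two-sided permutation p = 0.0571), and without control replicate 3, the highest sample, it was -0.23 (limma unadjusted p = 0.159). Unadjusted limma p was also above 0.05 without the library labelled p16 replicate 1 (0.103) and without p16 replicate 3 (0.0564).

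The ceramidases release sphingosine from ceramide. Acer2, of the Golgi, had the largest difference among them, at 63.8, 73.2, 86.9 and 99.3 in controls and 38.4, 59.3, 62.1 and 90.4 in p16 samples, a log2 fold change of -0.41 (95% interval -0.89 to 0.07, limma adjusted p = 0.408). Those of the acid ceramidase gene Asah1, the epidermal alkaline ceramidase gene Acer1, Acer3 and the neutral ceramidase gene Asah2 lay between -0.14 and 0.15, and Asah2 did so at values of 1.8 to 7.0, where the interval ran from -1.07 to 0.78. Sgpl1, the lyase that ends the pathway, had a log2 fold change of -0.14 (-0.36 to 0.08). Sphk2, the second sphingosine kinase gene, had one of -0.08 (-0.29 to 0.14), and it overlaps Dbp and the highly expressed ribosomal gene Rpl18 on the other strand.

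**Figure D3:**
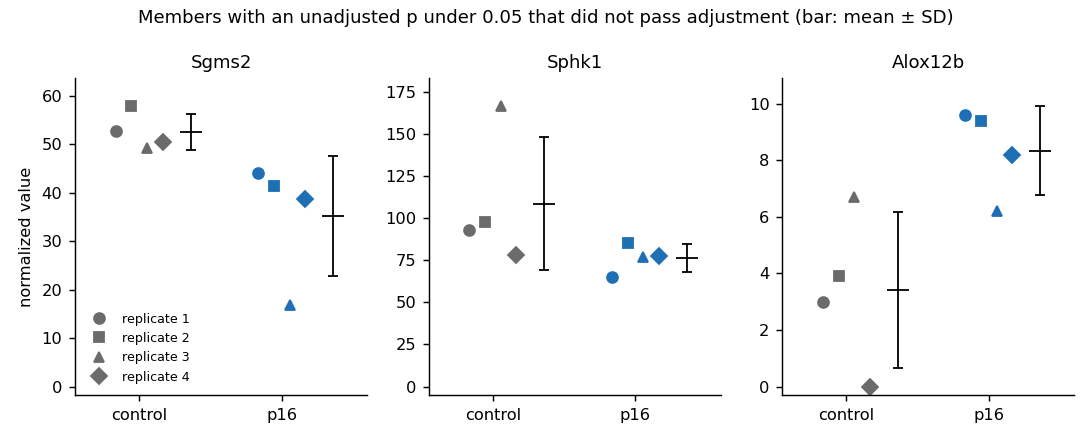
Normalized values of Sgms2, Sphk1 and Alox12b in each sample, with replicates told apart by symbol and bars showing the mean ± SD of 4 samples per group. The Sgms2 groups do not overlap but p16 replicate 3 (16.8) lies far below the rest, the Sphk1 controls include 1 high sample (166.2), and Alox12b lies between 0.0 and 9.6 throughout.

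Of the genes that make and load the acylceramides of the barrier, 4 were tested and 0 passed the adjusted test. Elovl4, which extends fatty acids to the ultra long range, had a log2 fold change of -0.14 (95% interval -0.53 to 0.26). Pnpla1, the transacylase that attaches linoleate, had one of -0.09 (-0.43 to 0.26), and Abhd5, its partner protein, one of 0.14 (-0.07 to 0.35). Abca12, the lipid transporter of lamellar bodies whose loss causes harlequin ichthyosis, had one of 0.07 (-0.30 to 0.43). Cyp4f39, the omega-hydroxylase of the same route, had 0 reads in every library, and 0 reads allows up to 3 reads, a normalized value of 2.23 to 4.58 depending on the library and covering counting error only.

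Alox12b and Aloxe3 encode the lipoxygenases that act in sequence on the linoleate of acylceramide, and they lie side by side on chromosome 11 (69156989 to 69169792 and 69125896 to 69149115 in GRCm38). Alox12b was listed at 3.0, 3.9, 6.7 and 0.0 in controls, or 0 to 8 reads, and at 9.6, 9.4, 6.2 and 8.2 in p16 samples, or 7 to 12 reads. The groups overlapped through control replicate 3. Its log2 fold change of 1.40 had a standard error of 0.53 (limma unadjusted p = 0.0186, adjusted p = 0.191, exact two-sided permutation p = 0.0571). At so few reads the size hung on the pseudocount, with 0.72 for a pseudocount of 5 and 2.29 for 0.1, and without control replicate 4, the library at 0, it was 0.80.

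Aloxe3 had a log2 fold change of 0.14 (-0.45 to 0.73). Sdr9c7, the dehydrogenase that follows, was at 3.7, 1.3, 2.5 and 1.5 in controls and 6.4, 6.2, 3.5 and 2.5 in p16 samples, a log2 fold change of 0.79 (-0.11 to 1.69, limma adjusted p = 0.391). Alox12e, an epidermal lipoxygenase gene elsewhere on chromosome 11, had 2315.2 to 3437.6 in controls and 1851.6 to 3243.3 in p16 samples, a log2 fold change of -0.12 (-0.47 to 0.23). The ranges of the 2 groups overlapped over most of their extent for Alox12e.

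Lipk, Lipn and Lipm are neighbouring lipase genes on chromosome 19, expressed in the last stages of keratinocyte differentiation. Lipn had 0 reads in every library. Lipk was at 5.2, 2.6, 14.2 and 13.8 in controls and at 6.4, 7.0, 5.3 and 5.8 in p16 samples, a log2 fold change of -0.25 with an interval of -1.19 to 0.69. Lipm, which overlaps Ankrd22 on the other strand, had 114.3 to 199.5 in p16 samples and 146.1 to 173.3 in controls, a log2 fold change of 0.03 (-0.31 to 0.36).

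When values were summed by role, de novo synthesis was the role in which the groups did not overlap, with 1341 to 1628 in controls and 1158 to 1239 in p16 samples. Without Cers4 the same sum was 1196 ± 66.1 (SD, n = 4) in controls and 1149 ± 35.0 in p16 samples. The ceramidase and sphingosine role summed to 1174 to 1436 in controls and 1172 to 1224 in p16 samples, and the acylceramide role to 601.8 to 772.5 and 620.0 to 745.7. The sums are dominated by the members with the highest values, and Alox12e makes up most of the lipoxygenase sum, so they were not tested. Across members, control replicate 3 was the highest of the 4 controls for 14 of 34 genes, or 41.2%, beside 24.7% of all genes.

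**Figure D4:**
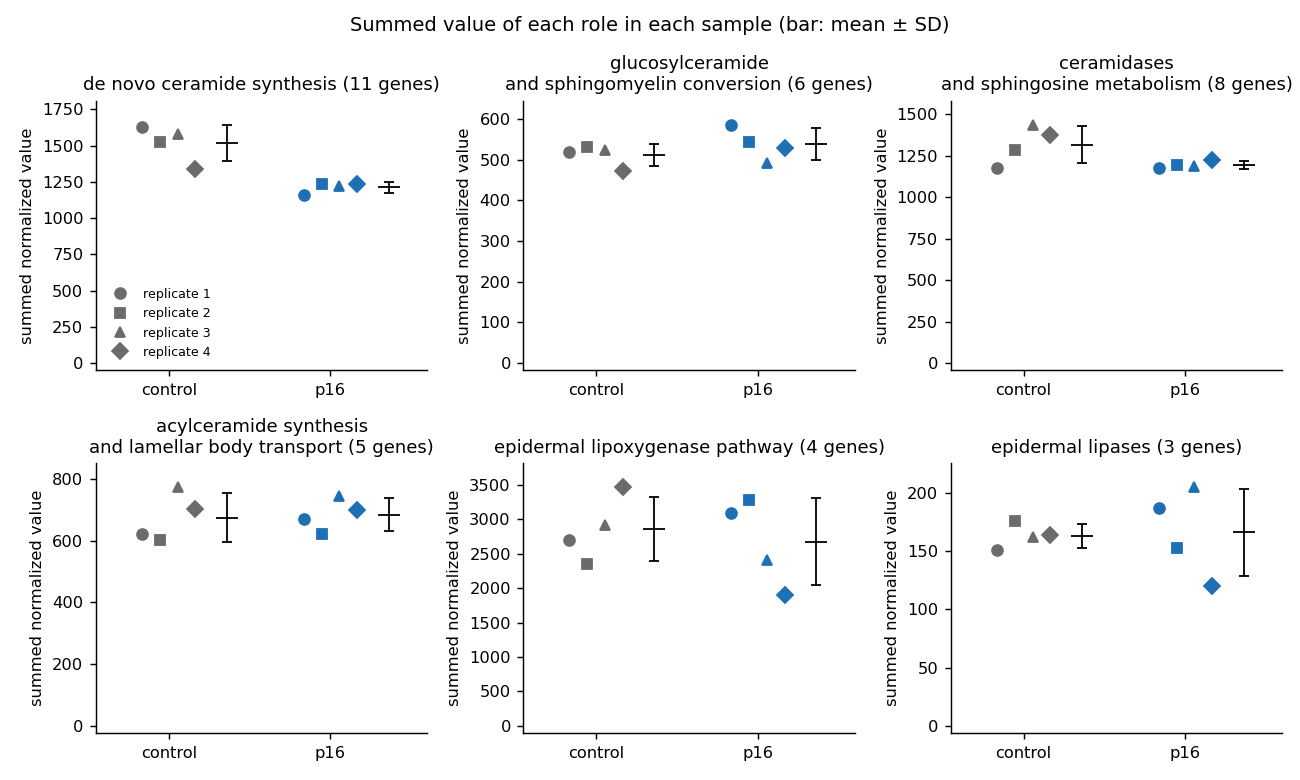
Summed normalized value of each of the 6 roles in each sample, with axes from 0, replicates told apart by symbol and bars showing the mean ± SD of 4 samples per group. The de novo synthesis sums of the p16 samples (1158 to 1239) lie below those of the controls (1341 to 1628), and the groups overlap in the other 5 roles.

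Other genes of the ceramide pathway were read from the same fit. Of 37 listed, 33 were tested, 1 was higher and 2 were lower in p16 cells, or 9.09% against 3.86% of all genes. Fa2h, which hydroxylates the fatty acid that enters ceramides, fell the furthest of them, from 87.5, 64.2, 100.2 and 94.7 in controls to 2.4, 21.1, 6.2 and 9.0 in p16 samples. Its log2 fold change was -3.33 with a standard error of 0.42 (limma, Benjamini-Hochberg adjusted p = 0.000364), and it was called without each sample in turn. As for Cers4, p16 replicate 2 was the highest of the p16 samples.

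The other 2 calls in this list changed with the sample left out. Smpdl3b, an acid sphingomyelinase-like phosphodiesterase gene, was at 117.2, 110.4, 73.5 and 157.4 in controls and 69.6, 71.0, 62.1 and 58.4 in p16 samples (log2 fold change -0.76, limma adjusted p = 0.0409). Naaa, an acid amidase gene related to that of acid ceramidase, was at 20.8, 30.8, 23.4 and 33.6 in controls and 49.6, 50.7, 42.6 and 44.4 in p16 samples (log2 fold change 0.79, limma adjusted p = 0.0375). The Smpdl3b call was kept without control replicate 3 (limma adjusted p = 0.0071) and lost without any other sample (0.0543 to 0.122). The Naaa call was lost without control replicate 1 (0.12), control replicate 3 (0.0975), the library labelled p16 replicate 1 (0.12), p16 replicate 2 (0.0903) or p16 replicate 3 (0.0678), all limma adjusted p.

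Of 40 other skin barrier lipid genes, 37 were tested, 0 were higher and 7 were lower in p16 cells, or 18.9% against 3.86% of all genes. Both this list and that of the other ceramide pathway genes were chosen with earlier results of these data known. Their shares are therefore description only. The fatty acid elongase genes Elovl3 and Elovl6 fell, with log2 fold changes of -2.31 and -2.17, as did Scd1, which desaturates stearate, at -1.46 (limma adjusted p between 1.11e-05 and 0.00354). Alox8, an inducible lipoxygenase gene of mouse skin, fell from 11.3 ± 3.21 to 2.02 ± 0.386 (SD, n = 4, limma adjusted p = 0.00371). These were 6 to 19 reads in a control library and 2 to 3 in a p16 library. At so few reads the size of the fall in Alox8 hung on the pseudocount, with -1.2 for 5 and -2.4 for 0.1. Elovl6 was at 511.9, 429.9, 324.1 and 351.4 in controls and 68.8, 177.2, 89.6 and 53.4 in p16 samples. These 4 genes were called in every fit that left out 1 sample. Smaller decreases were seen for Hacd2, a dehydratase of the same elongation cycle (-0.44), Acsl5, an acyl-CoA synthetase gene (-0.47), and Pla2g2f, an epidermal phospholipase gene (-0.67).

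The calls of these last 3 genes depended on the samples used. Hacd2 lost its call without control replicate 1, control replicate 3 or p16 replicate 3 (limma adjusted p 0.0553, 0.0671 and 0.0517). Acsl5 lost it without control replicate 2 or 3, the library labelled p16 replicate 1 or p16 replicate 3 (0.0533, 0.0731, 0.0907 and 0.0691). Pla2g2f kept it only without control replicate 2 (limma adjusted p = 0.0386) or p16 replicate 4 (0.00375), and ranged from 0.0727 to 0.118 without any other sample.

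Most markers of the sebaceous gland and some of the hair follicle were also lower in p16 cells. Of 13 sebaceous gland markers 11 were tested and 9 were lower, beside 2.61% of all genes. These were Scd1 and Elovl3 named above, the lipid droplet gene Plin2, the adipogenic regulator gene Pparg, Mgst1, Awat2, Far2, Acot1 and Soat1. Their summed value was 2577 to 3076 in controls and 1110 to 1665 in p16 samples, with the highest p16 value in replicate 2. Awat1, Mc5r and Fabp4 of this list were at 3 reads or fewer in every library. Of 11 hair follicle markers 0 were higher and 5 were lower, namely the follicle stem cell genes Cd34, Lhx2 and Sox9 and the keratin genes Krt75 and Krt6a, and the list summed to 14890 to 21430 in controls and 11520 to 15940 in p16 samples. The other 6 were not called, and 2 of them, Postn and Gjb6, had log2 fold changes above 0 (0.73 and 0.83, limma adjusted p = 0.272 and 0.15). Most of the hair follicle sum was Krt17 (5616.4 to 9510.6 in controls and 5315.4 to 7104.8 in p16 samples) and Krt79 (4163.9 to 6436.6 and 4243.2 to 5079.7). Both were among the 6 not called. For each of the 5 called follicle genes the groups did not overlap.

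The part of these compartments in the values of Cers4, Fa2h and the elongase genes was not tested, and in bulk samples fewer cells of a type and less RNA per cell cannot be told apart. Markers of differentiated keratinocytes, which express most of the barrier lipid genes, moved both ways: of 17, Lor and Tgm3 were higher and Ivl, Klk7 and Sbsn were lower, with sums of 8339 to 11310 in controls and 8772 to 12000 in p16 samples. Of 8 basal markers 1, Krt15, was lower, and 5 of the 8 had log2 fold changes above 0. Of 6 melanocyte markers tested 2, Dct and Tyrp1, were lower, and all 6 had log2 fold changes below 0. Over all genes, 1.24% were called higher and 2.61% lower. The fibroblast list summed to 10.8 to 27.3 in controls and 42.8 to 220.7 in p16 samples, nearly all of it Dcn in the p16 samples, which was higher there. The T cell list summed to 589.7 to 809.8 and 686 to 2917, and the Langerhans and myeloid list to 1050 to 1274 and 735.9 to 1067, with no gene called in either. Most of the T cell sum was Thy1 (582.1 to 791.8 in controls and 674.8 to 2908.2 in p16 samples), and most of the Langerhans and myeloid sum was Epcam, a gene of epithelia in general (925.3 to 1154.2 and 615.0 to 911.5). The Langerhans cell marker Cd207 was at 0.0 to 0.8 in controls and 1.8 to 4.7 in p16 samples (limma adjusted p = 0.0922).

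**Figure D5:**
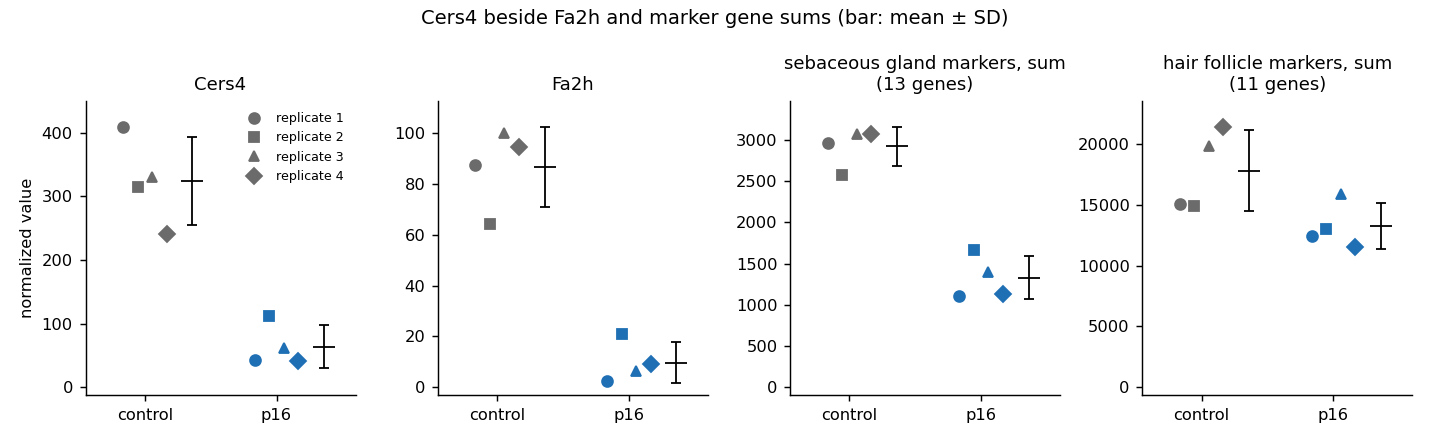
Normalized values of Cers4 and Fa2h and summed values of the sebaceous gland and hair follicle marker lists in each sample, with axes from 0 and bars showing the mean ± SD of 4 samples per group. Cers4, Fa2h and the sebaceous gland sum do not overlap between groups and share their highest p16 sample, replicate 2. The hair follicle sums overlap, and most of that sum is Krt17 and Krt79, which were not called. The 5 follicle genes that were called do not overlap between groups.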

How the data were processed

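Expression was measured by 3′ mRNA-seq (CEL-Seq2) in 4 control and 4 p16 samples of GFP+ keratinocytes. The authors trimmed reads with Cutadapt and aligned them to GRCm38 with TopHat2, and the submitters' processing notes also name HTSeq and DESeq2. Versions and the use of strand or molecular identifiers are not given in the sources used here. The deposited signal values are reads per gene divided by a size factor. Dividing by the value of 1 read gave whole reads (within 0.1) for 100% of values. The authors' own columns (group means, fold change, test statistic, p and adjusted p) were not used.

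Groups followed the labels, and 13 samples of a second profiling were not analysed here. The test was limma 3.58.1 in R 4.3.3, with a trended eBayes step, on log2(normalized value + 1). It covered the 12782 genes whose mean value reached 1, over which Benjamini-Hochberg adjustment was made. A gene was called under 0.05. A fold change on this scale understates that of low genes. Single genes also had an exact two-sided permutation test over 70 splits. The members, roles and other lists were chosen with earlier results of these data known. The members named with their values in every sample were those with an unadjusted p under 0.05 or without overlap between groups, beside further members chosen after their values were seen. Of the other lists, called genes were named, and some markers that were not called were named after their values were seen. For Flg and Itgam, which have several entries, the one with the highest mean was used as a marker. Gene positions are those of GENCODE M21.

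The samples came from 3 independent experiments, which the labels do not assign to samples, so p-values measure the spread between these pools of mice. No pair of libraries differed by as little as sampling noise. Alternatives were a pseudocount of 0.1 or 5, no filter or a mean of at least 10, a replicate block, each sample left out, replicate 3 of both groups left out, total count scaling, unadjusted p, and edgeR 4.0.16 (quasi-likelihood, TMM, with and without a filter) and DESeq2 1.42.0 on the recovered reads. A simulation of 4 p16 against 4 control samples left 12751 genes for limma to test. It recovered 87% of simulated 2-fold changes and 100% of simulated 4-fold ones. Genes simulated without a change accounted for 5.56% of those it called. These rates describe the simulated counts and are not read as the power for single members. Degs2 and Alox12b, for example, had standard errors of 0.63 and 0.53, beside a median of 0.18 over all genes tested. Same-numbered samples had correlations of their deviations of 0.106, 0.0215, 0.0644 and 0.178 and were not treated as pairs.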

Additional observations from a re-analysis of the deposited data

Results flagged for a closer look

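Among 68 groups of 4 samples examined, 34 members in each of 2 groups, 4 held a sample whose gap to the nearest other one, relative to the range of the group, passed Dixon's 95% limit. Chance flags about 1 in 20 groups. They were Sptlc2 in p16 replicate 2 (71.0, beside 58.4 for the next highest), Cers5 in p16 replicate 4 (77.3, beside 59.4), Smpd2 in control replicate 1 (63.1, beside 41.8) and Lipm in control replicate 2 (173.3, beside 149.7). Each was the highest sample of its group, and none of the 4 genes was called.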

How the results depend on the processing

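Cers4 was called lower in all 18 alternative fits, with log2 fold changes of -2.73 to -2.25 and adjusted p of 6.75e-08 to 0.00336, and no other member was called in any of them. With unadjusted p-values (under 0.05), 1 higher and 3 lower calls were made for members, 897 and 1141 for all genes, 4 and 6 for other ceramide genes, and 2 and 11 for other barrier lipid genes. With each sample left out in turn, genes called higher and lower ranged over 69 to 196 and 177 to 343, other ceramide genes over 0 to 1 and 1 to 2, other barrier lipid genes over 4 to 9 lower, and members without overlap between groups over 0 to 2 higher and 2 to 4 lower. Without replicate 3 of both groups, 66 genes were higher and 157 lower, 0 other ceramide genes were higher, 4 other barrier lipid genes were lower, and 2 members were higher without overlap (Alox12b and Smpd1). With fewer samples, groups separate more readily by chance. The counts without overlap in these reduced sets are therefore not set against the shares of all genes given above. Without the filter 0 other ceramide genes were higher, Naaa having an adjusted p of 0.0536, and 1 was lower under total count scaling. The cause of these shifts was not tested.

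Members near 0 changed sign in some fits. With single samples left out the lowest and highest log2 fold changes were -0.02 and 0.16 for Abca12, -0.05 and 0.15 for Acer1, -0.23 and 0.04 for Alox12e, -0.10 and 0.36 for Aloxe3, -0.45 and 0.06 for Asah2, -0.08 and 0.17 for Cers2, -0.06 and 0.35 for Cers3, -0.10 and 0.07 for Cers5, -0.06 and 0.10 for Cers6, -0.34 and 0.01 for Elovl4, -0.65 and 0.04 for Lipk, -0.09 and 0.18 for Lipm, -0.18 and 0.03 for Pnpla1, and -0.02 and 0.04 for Sptlc1. Without replicate 3 of both groups Cers6 was at -0.01, Lipk at 0.10 and Lipm at -0.11, and on recovered reads Sptlc1 was at -0.01 (edgeR and DESeq2) or -0.00 (edgeR without a filter).

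With the replicate number as a block, 216 genes were higher and 392 lower, Cers4 was at -2.42 (limma adjusted p = 3.03e-05) and no call of a member changed. Correlations of same-numbered samples were all above 0 but low (0.0215 to 0.178). Control replicates 1, 3 and 4 correlated best with the p16 sample of their own number, and control replicate 2 with p16 replicate 1 (0.131). The labels do not assign samples to experiments, so the block is not read as a pairing. For 7 of 34 members, Cers4 among them, the 95% interval reached past 2-fold.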
